A study of Mus musculus with 4 samples.

Results

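The Wnt ligands, their receptors and the secreted or membrane proteins that limit them were followed by RNA-seq in adult mouse muscle stem cells (MuSCs) given BMP6, a bone morphogenetic protein, for 1 h. The genes were chosen by name: all entries named as a Wnt or a Frizzled (Fzd), together with *Lrp5*, *Lrp6*, *Kremen1*, *Kremen2*, *Dkk1* to *Dkk3*, *Sfrp1*, *Sfrp2*, *Wif1*, *Rspo3*, *Znrf3*, *Rnf43*, *Axin2*, *Lef1* and *Tcf7*. This gave 45 of the 55267 entries in the joined expression table. The rule uses names and no measured value, though the list was drawn up with earlier results of these data known. The clearest difference was in *Wnt9a*, whose level after BMP6 was 2.79 times that of the control. Of the 17 genes that could be tested, *Wnt9a* was the only one to pass both thresholds for a call, and that call was lost under some other settings, given beside its values. *Kremen2*, *Fzd7* and *Fzd1* were also higher in both BMP6 libraries than in both controls, with mean ratios of 2.32, 1.74 and 1.52. The other ligands and receptors above the detection filter differed less between the groups.

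Wnts are secreted lipid-modified proteins that bind Frizzled receptors at the cell surface. With the co-receptors LRP5 or LRP6 they stabilise beta-catenin, which then acts with TCF/LEF factors on target genes, while other Wnts act through routes that do not need beta-catenin. Several proteins hold the signal back: SFRPs and WIF1 bind the ligand, Dickkopf (DKK) and Kremen proteins remove LRP co-receptors from the surface, and the ubiquitin ligases ZNRF3 and RNF43 remove Frizzleds unless an R-spondin is present. In skeletal muscle, Wnt signaling is known for its part in the differentiation and self-renewal of MuSCs.

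The cells came from 9-week-old female C57BL/6N mice carrying the transgene Tg(Pax7-EGFP)Tajb, in which the *Pax7* promoter drives a green fluorescent protein. All 4 libraries were of cells taken from limb, back and breast muscle, cultured, sorted for the reporter and cultured again in 3% oxygen. Both groups were kept without serum for 6 h with 200 ng/mL BMPR-1A-Fc, a soluble receptor that captures BMPs. The BMP6 group then received 100 ng/mL BMP6, and the control group an equal addition of the solvent (0.1% BSA in 4 mM HCl), for 1 h. Each group held 2 biological replicates, and per the labels a replicate number stands for a batch, with 1 library of each group in it.

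Each library held 108 to 112 times 1000000 reads as rebuilt from coverage. Levels are in TPM (transcripts per 1000000), and a level of 1 TPM or more was found for 13002 to 13203 entries in a library. The direct BMP targets *Id1*, *Id3* and *Smad7* were higher after BMP6 by 2.33, 2.46 and 2.01 on the log2(TPM + 1) scale (limma, adjusted p = 0.0164, 0.0104 and 0.0511). Of the myogenic markers, all 7 were tested, with a summed level of 6664 to 6947 TPM after BMP6 and 6847 to 7626 TPM in control. *Myog* alone stood at 4400 to 5472 TPM and *Pax7* at 8.29 to 11.7 TPM, so the differentiation marker was far above the stem cell marker in all 4 libraries. *Des* stood lower after BMP6 without overlap of the groups (952 and 807 against 1120 and 955 TPM). Its limma adjusted p was 0.0312 with the replicate number as a block and not under 0.1 without it. *Myod1* stood higher without overlap (631 and 622 against 536 and 614 TPM), and in the other myogenic markers the groups overlapped. The 5 endothelial markers summed to 1.72 to 2.02 TPM after BMP6 and 1.25 to 2.16 TPM in control, with *Kdr* listed at 0 in every library. The 5 immune markers summed to 1.12 to 1.78 and 1.21 to 2.10 TPM, with *Ptprc* listed at 0 in 3 of the 4 libraries. The 4 Schwann markers summed to 0.496 to 0.514 and 0.386 to 0.601 TPM. Of the 6 fibroblast markers, *Pdgfra* was at 0.164 TPM at most, while *Col1a1* reached 34.3 to 62.9 TPM, and the list summed to 55.3 to 86.3 TPM after BMP6 and 69.2 to 91.2 TPM in control. *Ly6a* stood lower after BMP6 without overlap (22.1 and 18.7 against 24.1 and 22.4 TPM), and in the other fibroblast markers the groups overlapped. The 6 pericyte and smooth muscle markers summed to 2916 to 2956 and 3107 to 3260 TPM, nearly all of it *Acta2*, and *Myh11* was at 0.0239 TPM at most. Of that list, *Cspg4* stood higher after BMP6 without overlap of the groups (3.30 and 3.95 against 2.05 and 3.25 TPM). So did *Rgs5* (0.879 and 0.554 against 0.493 and 0.231 TPM), whose mean over the 4 libraries was 0.539 TPM. *Acta2* stood lower after BMP6 without overlap (2947 and 2906 against 3100 and 3251 TPM). In *Pdgfrb*, *Kcnj8* and *Myh11* the groups overlapped. The part of these markers in the results was not tested. In such bulk samples, a change in the share of cells of 1 kind cannot be told apart from a change of RNA per cell.

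TPM is a level per transcript length and per library, so it can be compared between genes. A gene was tested when its mean over the 4 libraries was at least 1 TPM, which 13128 entries reached. Fold changes are differences of log2(TPM + 1), which understate the change of genes with a low TPM. A gene was called when that fold change was at least 2 or at most 0.5 and the adjusted p from limma was under 0.1. Among the 10645 tested entries eligible for a call, 24 were called higher (0.225%) and none was called lower (0.0%). For the count of 0, 79 entries were lower by the unadjusted p alone, under 0.05 (0.742%), limma with the replicate number as a block called 1 (0.00939%), and voom on rebuilt reads with the block called 7.

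Of the 45 Wnt genes, 17 were tested: 3 ligands, 6 Frizzleds, *Lrp6*, both Kremens, *Dkk3*, *Sfrp2*, *Wif1*, *Znrf3* and *Tcf7*. All 17 also had a control mean of at least 1 TPM, so none passed the filter only through its level after BMP6. The fold change was above 0 in 12 and below 0 in 5, where 7266 of all 13128 tested entries were above 0 and 5862 below. The median was 0.14 on the log2 scale against 0.02 for all tested entries. In 11 genes both same-numbered pairs were higher after BMP6, and in 2 both were lower, where 35.0% and 25.7% of all tested entries were. Both BMP6 libraries stood above both controls in 8 of the 17 (*Wnt9a*, *Fzd1*, *Fzd4*, *Fzd7*, *Kremen1*, *Kremen2*, *Znrf3* and *Tcf7*), where 17.4% of eligible entries did so. In none did both stand below, where 10.8% of eligible entries did so. At an unadjusted p under 0.05, 5 were higher (*Wnt9a*, *Fzd1*, *Fzd7*, *Kremen1* and *Kremen2*) and 0 lower, against a background of 2.38% of entries higher. Summed over all 45 genes, the level was 135 and 138 TPM after BMP6 and 109 and 110 TPM in control.

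**Figure D1:**
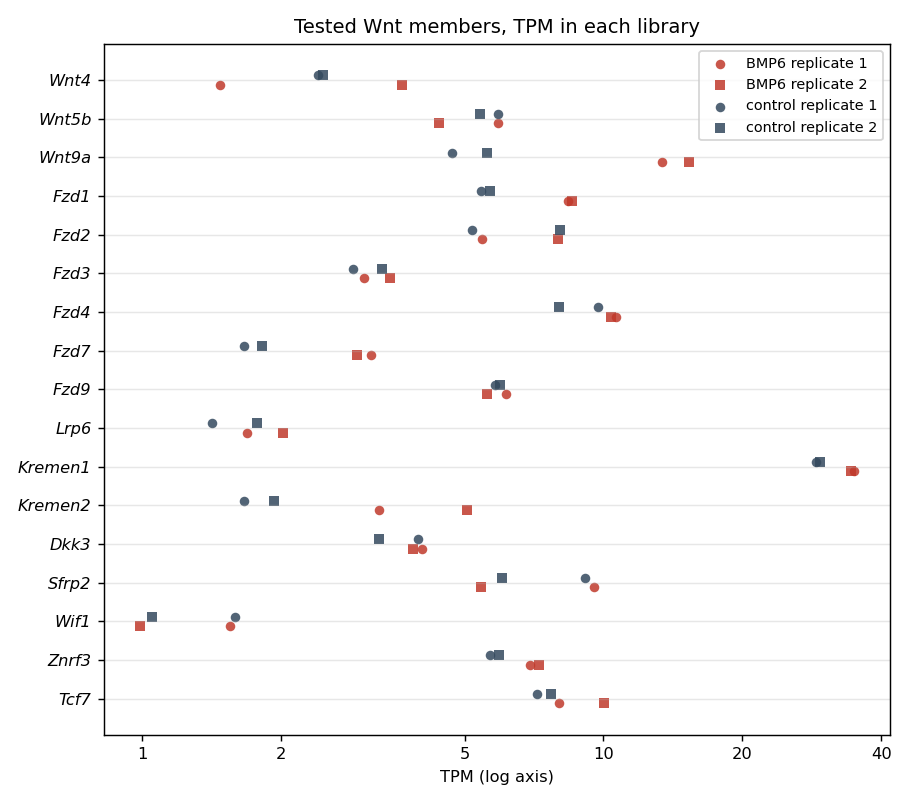
TPM of the 17 tested Wnt genes in each of the 4 libraries, on a log axis; colour marks the group and shape the replicate number. The BMP6 libraries of *Wnt9a* (13.4 and 15.3 TPM) lie far to the right of its controls (4.69 and 5.59 TPM), while *Fzd2*, *Sfrp2* and *Wif1* split by replicate number.

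Among the 19 ligand genes, 3 were tested. The order of their mean levels was *Wnt9a*, *Wnt5b* and *Wnt4*, with *Wnt10a* next. The ranges of *Wnt9a* and *Wnt5b* over the 4 libraries overlapped, whereas those of *Wnt5b*, *Wnt4* and *Wnt10a* did not overlap from 1 to the next. In the control libraries, *Wnt5b* and *Wnt9a* stood at about the same level, and after BMP6 *Wnt9a* stood above the sum of all other ligands. The summed level of all 19 was 24.2 and 26.4 TPM after BMP6 and 15.1 and 16.2 TPM in control.

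*Wnt9a* encodes a Wnt ligand known from joint, limb and blood stem cell development. Its entry (merged_LIST.3456) lies at chr11:59197754-59224378 on the plus strand of GRCm39. It measured 13.4 and 15.3 TPM in BMP6 replicates 1 and 2 and 4.69 and 5.59 TPM in control replicates 1 and 2. The groups were well apart, and the lower BMP6 library was more than 2 times the higher control. The log2 fold change was 1.32 (SE 0.15, 95% interval 0.96 to 1.68, limma adjusted p = 0.0638), with 1.34 and 1.31 in pairs 1 and 2, and the gene was called higher. The adjusted p was 0.000236 with the replicate block. The call was lost without control replicate 1 (1.22, adjusted p = 0.176), without a filter on low values (adjusted p = 0.639), without a variance trend (adjusted p = 0.112), at an adjusted p under 0.05, and with a pseudocount of 5, where the fold fell short of 2 (0.93, adjusted p = 0.0714).

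One transcript of 3318 bases carried 99.8% to 100% of the *Wnt9a* level in every library. Its 4 exons were all deeper after BMP6 in both pairs, once scaled to the rebuilt reads of each library. The ratio ranged from 2.33 to 3.48 over the exons in pair 1 and from 1.71 to 2.76 in pair 2, and exon 1 held the highest ratio of pair 1 and the lowest of pair 2. No stretch of at least 100 bases with at least 95% identity joins its transcripts to another gene. *Wnt3a* is its neighbour on the chromosome, 16.2 kb away on the other strand with no entry between, and *Wnt3a* was listed at 0 in all 4 libraries.

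*Wnt5b*, a ligand best known for signaling without beta-catenin, stood at 5.90 and 4.40 TPM after BMP6 and 5.92 and 5.39 TPM in control. The groups overlapped, and the log2 fold change was -0.12 (95% interval -0.54 to 0.29). The files divide *Wnt5b* mainly between transcripts of 2368 and 2371 bases whose exons differ only at the 3′ end. The transcript of 2368 bases held 100% and 96.6% of the level after BMP6 and 53.1% and 45.8% in control. In control replicate 2, a further transcript of 2115 bases held 16.5%. Since the transcripts of 2368 and 2371 bases are almost the same sequence, how reads were split between them is uncertain, and the gene total is read here. A GENCODE M39 transcript of *Wnt5b* also shares 946 bases with *Fbxl14*.

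*Wnt4*, a ligand with known roles in kidney and in female reproductive development, stood at 1.47 and 3.65 TPM after BMP6 and 2.41 and 2.46 TPM in control. The BMP6 libraries lay on either side of the controls, so the pairs moved in opposite directions (-0.46 and 0.43) and the log2 fold change was -0.02 (95% interval -0.75 to 0.72). GENCODE M39 transcripts of *Wnt4* also share stretches of at least 100 bases with 349 other genes, and the authors' quantification did not correct for reads placed at several sites.

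Of the 16 untested ligands, *Wnt11* had the widest gap in TPM between the groups, while *Wnt10b*, at a lower level, had the larger ratio. *Wnt11*, a ligand of polarity and cell movement, stood at 1.08 and 1.13 TPM after BMP6 and 0.375 and 0.495 TPM in control. Both BMP6 libraries were above 1 TPM and both controls below 0.5 TPM. In BMP6 replicate 2, however, 40.9% of the level was placed on a transcript of 3451 bases that was listed at 0 in the other 3 libraries. On the main transcript of 3236 bases, the level was 2.89 times that of the control in pair 1 and 1.35 times in pair 2. The mean over the 4 libraries was 0.771 TPM, under the filter. Fitted without a filter, its log2 fold change was 0.56 (limma, unadjusted p = 0.0079, adjusted p = 0.981). The values rested on 220 and 226 rebuilt reads after BMP6 and on 77.4 and 98.6 in control.

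*Wnt10a* stood at 1.08 and 0.822 TPM after BMP6 and 0.838 and 1.175 TPM in control, just under the filter and with overlapping groups. Its neighbour *Wnt6*, 6.19 kb away on the same strand, stood at 0.424 and 0.272 TPM after BMP6 and 0.331 and 0.624 TPM in control. In both genes control replicate 2 was the highest library. *Wnt10b* stood at 0.326 and 0.184 TPM after BMP6, at 0.0208 TPM in control replicate 1, and was listed at 0 in control replicate 2. That is 45.4 and 28.2 rebuilt reads against 2.95 and 0, too few to read a fold from. A GENCODE M39 transcript of *Wnt10b* also shares 268 bases with its neighbour *Wnt1*. *Wnt5a* lay between 0.0885 and 0.328 TPM. The other ligands stayed under 0.2 TPM in every library: *Wnt1*, *Wnt2*, *Wnt2b*, *Wnt3*, *Wnt7a*, *Wnt7b* and *Wnt16* had a value above 0 in at least 1 library, and *Wnt3a*, *Wnt8a*, *Wnt8b* and *Wnt9b* were listed at 0 in all 4.

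Among the 10 Frizzleds, 6 were tested, and all 10 had a level above 0. By mean TPM the order was *Fzd4*, *Fzd1*, *Fzd2*, *Fzd9*, *Fzd3* and *Fzd7*, followed by *Fzd10*, *Fzd8*, *Fzd6* and *Fzd5*. Neighbours in that order had overlapping ranges except *Fzd9* over *Fzd3* and *Fzd7* over *Fzd10*. The highest values were therefore shared by several receptors rather than held by 1. The summed Frizzled level was 39.7 and 42.1 TPM after BMP6 and 33.8 and 35.7 TPM in control.

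*Fzd1* (chr5:4803839-4808035, minus strand), a receptor for beta-catenin-dependent Wnts, stood at 8.36 and 8.56 TPM after BMP6 and 5.42 and 5.68 TPM in control. Replicates agreed closely within each group, and the groups did not overlap. BMP6 over control gave a log2 fold change of 0.53 (SE 0.13, 95% interval 0.22 to 0.85), with 0.54 and 0.52 in the pairs. The limma adjusted p was 0.873 without the block and 0.0512 with it, and the fold stayed under 2.

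*Fzd7* (chr1:59521583-59526114, plus strand), known as a WNT7A receptor on MuSCs, stood at 3.14 and 2.93 TPM after BMP6 and 1.67 and 1.82 TPM in control. Each BMP6 library was above each control by more than 1 TPM. This amounted to a log2 fold change of 0.56 (SE 0.14, 95% interval 0.21 to 0.91), with 0.63 and 0.48 in the pairs. The limma adjusted p was 0.966 without the block and 0.105 with it. voom with the block gave 0.79 with an adjusted p of 0.0352, under a 2-fold change.

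*Fzd4*, which also serves as the receptor for norrin, stood at 10.7 and 10.4 TPM after BMP6 and 9.72 and 8.01 TPM in control. The groups did not overlap, but the gap between them was smaller than the spread of the controls, and the log2 fold change was 0.23 (95% interval -0.12 to 0.58). *Fzd2* stood at 5.46 and 7.98 TPM after BMP6 and 5.19 and 8.04 TPM in control. The libraries of the same replicate number lay close together, and those of 1 group lay apart (log2 fold change 0.03, 95% interval -0.58 to 0.63). *Fzd3*, a receptor of axon guidance and polarity, stood at 3.03 and 3.44 TPM after BMP6 and 2.87 and 3.30 TPM in control (log2 fold change 0.05, 95% interval -0.32 to 0.42). *Fzd9* stood at 6.14 and 5.60 TPM after BMP6 and 5.82 and 5.95 TPM in control. Its controls lay between the BMP6 libraries, and the log2 fold change was -0.00447 (95% interval -0.33 to 0.32).

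The untested Frizzleds lay near the filter. *Fzd5* stood at 0.652 and 0.653 TPM after BMP6 and 0.527 and 0.520 TPM in control, without overlap. *Fzd6* stood at 0.706 and 0.899 TPM after BMP6 and 0.743 and 0.594 TPM in control, and *Fzd8* at 0.560 and 1.08 TPM against 0.554 and 0.865 TPM. *Fzd10* stood at 0.993 and 0.570 TPM after BMP6 and 1.33 and 0.890 TPM in control. A GENCODE M39 transcript of *Fzd10* also shares 852 bases with *Fzd10os*, which reached 3.82 TPM, so reads of that gene may be included. In *Fzd6*, *Fzd8* and *Fzd10* the groups overlapped, and *Fzd8* and *Fzd10* differed in the same direction between replicate numbers in both groups.

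**Figure D2:**
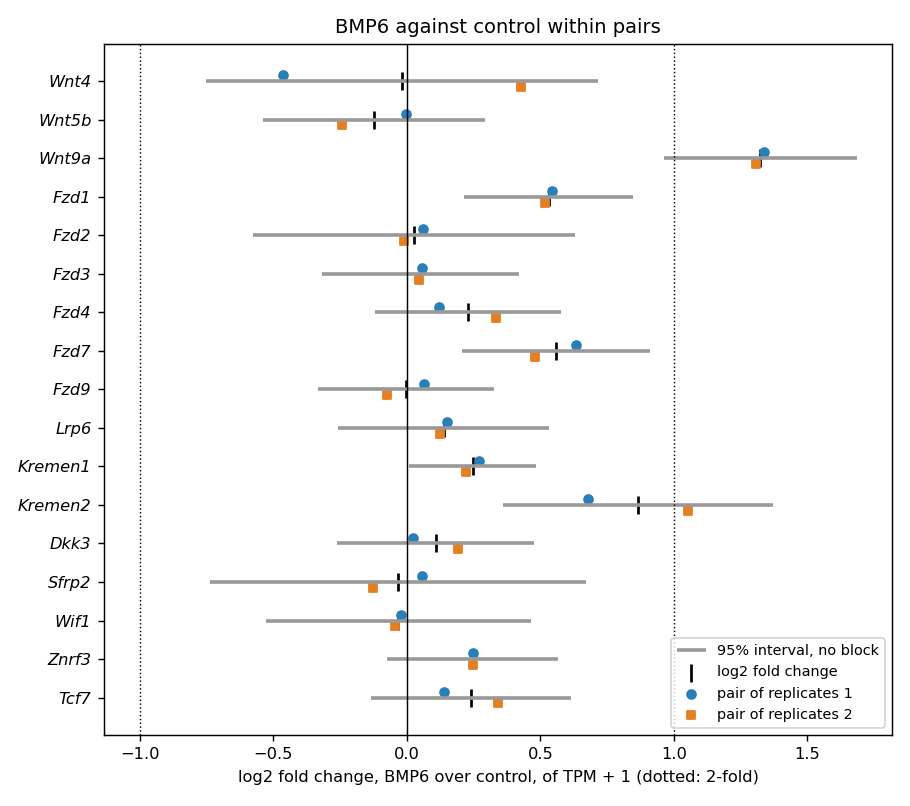
Log2 fold change of TPM + 1, BMP6 over control, for the 17 tested genes: black ticks are the estimates, grey bars their 95% intervals from limma without a block, and points the same-numbered pairs. *Wnt9a* is the 1 estimate past the dotted 2-fold line, and both pairs of *Fzd1*, *Fzd7* and *Kremen2* lie above 0.4, with the pairs of *Wnt4* on opposite sides of 0.

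Of the co-receptors, *Lrp6* was tested and *Lrp5* was not. *Lrp6* stood at 1.68 and 2.02 TPM after BMP6 and 1.42 and 1.77 TPM in control (log2 fold change 0.14, 95% interval -0.26 to 0.53). The groups overlapped, and both pairs were slightly higher after BMP6. Of the 23 exons of *Lrp6*, 6 were deeper after BMP6 in both pairs and 6 were shallower in both. The last exon, the longest with 4605 bases, was 1.28 and 1.14 times as deep as in control. GENCODE M39 transcripts of *Lrp6* share stretches of at least 100 bases with 327 other genes, so reads of other genes may be included. *Lrp5* stood at 0.865 and 0.354 TPM after BMP6 and 0.395 and 0.430 TPM in control, so BMP6 replicate 1 was at least 2 times every other library. In that library, 47.3% of the level was placed on a transcript of 2759 bases. On the transcript of 5169 bases, the level was 0.456 and 0.296 TPM after BMP6 and 0.343 and 0.401 TPM in control. GENCODE M39 transcripts of *Lrp5* also share 187 bases with *Dst* and with *Golm2*.

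The Kremens are single-pass membrane proteins that bind Dickkopfs and clear LRP6 from the surface. Their summed level was 38.2 and 39.5 TPM after BMP6 and 30.5 and 31.3 TPM in control, nearly all of it *Kremen1*. *Kremen1* (chr11:5141552-5211558, minus strand) was the highest of all 45 genes, with 35.0 and 34.5 TPM after BMP6 and 28.9 and 29.4 TPM in control. Both groups were tight and did not overlap. The log2 fold change was small, 0.25 (SE 0.10, 95% interval 0.01 to 0.48), with a limma adjusted p of 1.00 without the block and 0.248 with it. Of its 9 exons, 3 were deeper after BMP6 in both pairs (the last 3 of the transcript), and the summed depth of all exons was 1.20 and 1.15 times that of the control.

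*Kremen2* (chr17:23960171-23964807, minus strand) stood at 3.26 and 5.07 TPM after BMP6 and 1.67 and 1.93 TPM in control. The BMP6 libraries differed from each other by more than the controls did, yet both lay above both controls. The log2 fold change was 0.86 (SE 0.21, 95% interval 0.36 to 1.37), with 0.68 and 1.05 in the pairs. The limma adjusted p was 0.832 without the block and 0.0205 with it, and the fold stayed under 2 on the log2(TPM + 1) scale. The ratio of TPM itself was 1.96 in pair 1 and 2.63 in pair 2. On rebuilt reads, where no constant of 1 TPM is added, voom with the block gave 1.18 with an adjusted p of 0.0141, past both thresholds.

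With the block, 3 of the 17 genes were past the adjusted p and higher (*Wnt9a*, *Fzd1* and *Kremen2*), where 1.32% of eligible entries were. None was lower, where 0.319% of eligible entries were. *Wnt9a* remained the 1 gene past the fold as well, where 0.338% of eligible entries were called higher with the block.

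All 10 exons of *Kremen2* were deeper after BMP6 in both pairs, by 1.38 to 3.15 times in pair 1 and 1.87 to 4.67 times in pair 2. The gene overlaps 9530082P21Rik on the opposite strand over 200 exon bases (9.42% of its exon length), and the libraries did not keep strand. That entry stood at 7.83 and 10.1 TPM after BMP6 and 8.07 and 8.89 TPM in control, with overlapping groups. In the 8 *Kremen2* exons outside the overlap, summed depth was 1.90 and 2.60 times that of the control in pairs 1 and 2, about as large as over the whole gene.

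**Figure D3:**
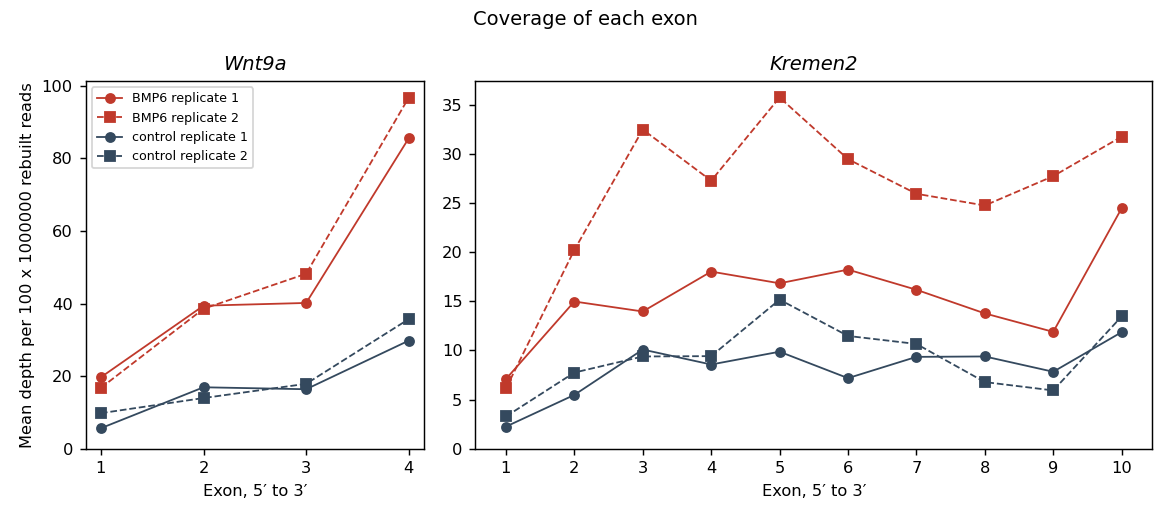
Mean depth of each exon of *Wnt9a* (left) and *Kremen2* (right) scaled to the same number of rebuilt reads in every library, exons numbered 5′ to 3′, one line per library and both axes from 0. Every exon of both genes is deeper in each BMP6 library than in the control of the same number.

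The promoters of these 2 genes were read because they were called in at least 1 fit. Windows of 250 bases before a RefSeq start (build GRCm38.p6) were found for 30 of the 45 genes, and each matched GRCm39 once. They were searched on both strands for GGCGCC, a GC-rich element bound by BMP-responsive SMADs, for GTCTG or CAGAC, the SMAD box, and for CTTTGAT or ATCAAAG, a TCF/LEF element. The *Wnt9a* window, with 84.4% GC, held GGCGCC at 2 places and neither of the others. The *Kremen2* window, with 68.0% GC, held the SMAD box letters at 2 places and neither of the others. The 4 stretches are shown 5′ to 3′ on the gene's strand with GRCm39 positions, and capitals mark the searched letters.
Wnt9a, chr11:59197626-59197655: cggcccgcccccGGCGCCggcgtgacccct
Wnt9a, chr11:59197679-59197708: gcccagctggccGGCGCCccgccccgcggc
Kremen2, chr17:23964844-23964872: tgccttcctcccCAGACaccagctgcccc
Kremen2, chr17:23964804-23964823: tccacgattcctGTCTGtct
The *Wnt9a* matches lay 118 to 113 and 65 to 60 bases before the RefSeq start, and the *Kremen2* matches 57 to 53 and 8 to 4 bases before it. In GENCODE M39, transcripts of both genes start further upstream, so these letters also fall within transcribed sequence of that annotation.

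Such letters are common. GGCGCC was in 9.59% of all 32851 windows and in 38.5% of the 3037 windows with at least 70% GC, and in 13 of the 38 windows of the Wnt genes. GTCTG or CAGAC was in 42.2% of all windows and in 17 of the 38. The TCF/LEF letters were in 3.21% of all windows and in 2 of the 38. Among the 14 windows of tested genes, GGCGCC was in 6: those of *Wnt9a*, *Wnt4*, *Fzd4* and *Fzd9* and both of *Tcf7*. The groups overlapped in *Wnt4* and *Fzd9* and did not in *Wnt9a*, *Fzd4* and *Tcf7*. Of the untested genes, the upstream *Wnt11* window held GGCGCC at 2 places and the TCF/LEF letters once. The window of *Fzd10*, whose groups overlapped, also held GGCGCC at 2 places. The *Fzd1* window held the SMAD box letters once, and the *Fzd7* window held none of the 3 motifs. A match of letters is not a binding site, and binding was not measured in the files used here.

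Among the secreted inhibitors, *Dkk3*, *Sfrp2* and *Wif1* were tested. *Dkk3*, a Dickkopf relative that does not bind LRP6 in the usual way, stood at 4.04 and 3.86 TPM after BMP6 and 3.96 and 3.26 TPM in control. The groups overlapped (log2 fold change 0.11, 95% interval -0.26 to 0.48). *Dkk1* and *Dkk2*, which encode Dickkopfs that act through LRP6, were listed at 0 in all 4 libraries.

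*Sfrp2*, a decoy that binds Wnts and is found in many mesenchymal cells, stood at 9.53 and 5.42 TPM after BMP6 and 9.12 and 6.01 TPM in control. *Wif1*, which binds Wnts outside the cell, stood at 1.55 and 0.988 TPM after BMP6 and 1.59 and 1.05 TPM in control. In both genes replicate 1 was higher than replicate 2 in each group. The log2 fold change was -0.03 in both, with 95% intervals of -0.74 to 0.67 and -0.53 to 0.46. The fibroblast markers *Col1a1* and *Dpt* were higher in replicate 1 of each group too (57.8 and 62.9 against 34.3 and 44.2 TPM for *Col1a1*, and 3.96 and 2.41 against 1.26 and 1.18 TPM for *Dpt*), and their part in these levels was not tested. *Sfrp1* lay between 0.0729 and 0.183 TPM.

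*Znrf3* (chr11:5226324-5394847, minus strand), whose product removes Frizzleds from the surface, stood at 6.91 and 7.23 TPM after BMP6 and 5.67 and 5.94 TPM in control. The groups did not overlap, and the pairs gave 0.25 each (log2 fold change 0.25, 95% interval -0.07 to 0.57, limma adjusted p = 1.00, and 0.364 with the block). The exons of *Znrf3* did not move together: of 9, only the last was deeper after BMP6 in both pairs (1.27 and 1.24 times), and 7 were shallower in both. The last exon, of 3438 bases, is the longest and by far the deepest, so it carries most of the gene's level. *Znrf3* lies 14.8 kb from *Kremen1*, with 1 entry between them. The log2 fold change of *Kremen1* was also 0.25, and a link between these genes was not tested. *Rnf43*, the other ligase of the pair, was at 0.0121 TPM in control replicate 1 and listed at 0 in the other 3 libraries. *Rspo3*, an R-spondin that blocks both ligases, lay between 0.0632 and 0.130 TPM.

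Of the nuclear and feedback genes, *Tcf7*, which encodes the TCF1 factor, was tested. It stood at 8.02 and 10.0 TPM after BMP6 and 7.19 and 7.71 TPM in control, without overlap (log2 fold change 0.24, 95% interval -0.13 to 0.61, limma adjusted p = 1.00). A transcript of 2471 bases held 87.7% to 93.8% of its level in every library, and 5 of its 10 exons were deeper after BMP6 in both pairs. *Axin2*, a negative regulator that is widely read as a sign of beta-catenin activity, lay between 0.0638 and 0.215 TPM, with the highest and the lowest value both in control. *Lef1*, the related factor, stood at 0.0468 and 0.107 TPM after BMP6, at 0.0139 TPM in control replicate 1, and was listed at 0 in control replicate 2.

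**Figure D4:**
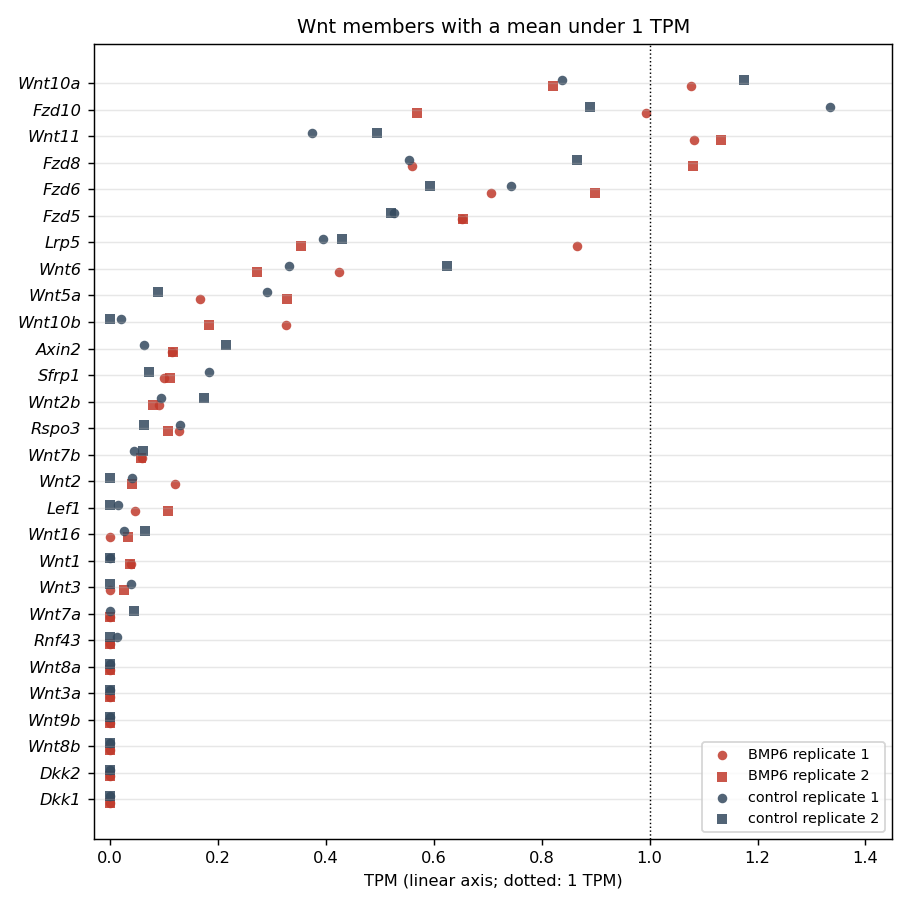
TPM of the 28 Wnt genes with a mean under 1 TPM, in each library on a linear axis. *Wnt11* is the gene with both BMP6 libraries (1.08 and 1.13 TPM) past the dotted line of 1 TPM and both controls (0.375 and 0.495 TPM) well under it, and 6 genes are listed at 0 in all 4 libraries.

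In all, 28 of the 45 genes were under the filter, and 17 of these stayed under 0.2 TPM in every library. The 6 listed at 0 throughout were *Wnt3a*, *Wnt8a*, *Wnt8b*, *Wnt9b*, *Dkk1* and *Dkk2*. The 28 genes together summed to 7.55 and 7.01 TPM after BMP6 and 6.05 and 6.38 TPM in control.

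The rest of the Wnt pathway was read from a list of 95 further genes, of which 94 had an entry and 64 were tested. The fold change was above 0 in 42 and below 0 in 22, where 7266 of all 13128 tested entries were above 0 and 5862 below. The median was 0.06 on the log2 scale against 0.02 for all tested entries. None of the 64 was past an adjusted p of 0.1 in limma without the block, while at an unadjusted p under 0.05 there were 3 higher and 2 lower (background 2.38% and 0.742% of eligible entries). With the block, 1 was higher (*Ccn1*) and 1 lower (*Myc*), against a background of 1.32% and 0.319%. voom with the block gave 2 higher and 2 lower. That fit also called more entries over all genes, its own share at the adjusted p is not given, and the limma shares do not apply to it. *Ccn1*, a matricellular protein and also a target of other pathways, stood at 631 and 484 TPM after BMP6 and 411 and 400 TPM in control (log2 fold change 0.44, limma adjusted p = 1.00, and 0.0293 with the block). *Myc*, a growth regulator and known beta-catenin target, stood at 45.6 and 41.9 TPM after BMP6 and 59.1 and 60.7 TPM in control (log2 fold change -0.45, limma adjusted p = 0.637, and 0.0303 with the block). In neither gene did the groups overlap, and both changes were under 2-fold.

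By role, 7 of 9 tested genes of Wnt secretion and extracellular control had a fold change above 0 (median 0.09), as did 7266 of all 13128 tested entries (median 0.02). *Wls*, the carrier that brings Wnts to the surface, stood at 106 and 99.3 TPM after BMP6 and 100.1 and 82.8 TPM in control (log2 fold change 0.17, 95% interval -0.11 to 0.46). *Porcn*, the enzyme that adds the lipid to Wnts, stood at 22.8 and 17.0 TPM after BMP6 and 25.4 and 20.8 TPM in control (-0.21, 95% interval -0.65 to 0.22). *Lgr4*, an R-spondin receptor, stood at 7.48 and 8.45 TPM after BMP6 and 6.96 and 7.99 TPM in control (0.08, 95% interval -0.27 to 0.43). In all 3 the groups overlapped, and *Wls* was above every ligand in every library. On the beta-catenin route, 18 of 28 tested genes were above 0 and 10 below (median 0.02), and *Ctnnb1*, beta-catenin itself, stood at 174 and 195 TPM after BMP6 and 181 and 183 TPM in control (0.02, 95% interval -0.20 to 0.24). Of the other Wnt receptors and polarity genes, 11 of 16 were above 0 (median 0.06), and of the feedback and target genes 6 of 11 (median 0.02).

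**Figure D5:**
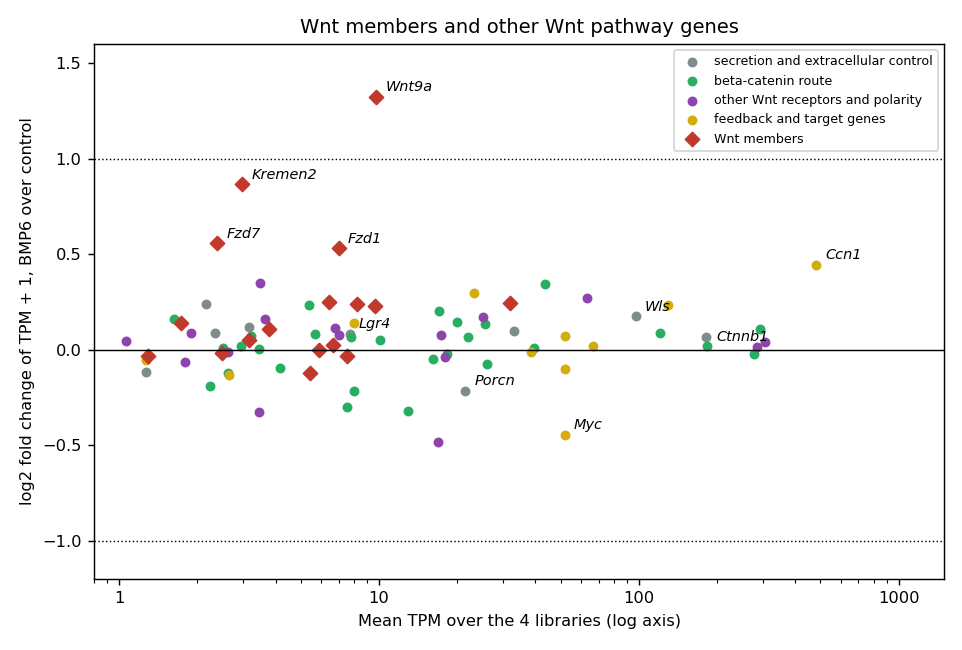
Log2 fold change of TPM + 1, BMP6 over control, against mean TPM (log axis) for the 17 tested Wnt genes (diamonds) and 64 tested genes of the rest of the pathway (points, coloured by list). *Wnt9a* at 1.32 is the 1 gene past the dotted 2-fold line, and *Myc* and *Ccn1*, at -0.45 and 0.44, were past the adjusted p with the block.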

How the data were processed

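RNA-seq was made from polyA RNA with Smart-seq2 and Nextera XT, unstranded and without molecular identifiers, in 2 BMP6 and 2 control libraries. The authors aligned reads with STAR 2.7.11a to GRCm39 (GENCODE M32) and quantified merged assemblies with StringTie 2.2.1, without correcting for reads aligned at several places. The authors deposited TPM per gene, scaled to one sum in every library, FPKM per gene, and, per transcript and exon, coverage as an unscaled signal. No counts were used, so instead of the study's DESeq2 test, limma 3.58.1 (lmFit, eBayes with a trend, R 4.3.3) was run two-sided on log2(TPM + 1) over 13128 entries with a mean of at least 1 TPM, with Benjamini-Hochberg adjustment. Its p-values rest on 2 samples a group, where a permutation cannot go below 0.333. Unnamed entries and names such as Gm, Mir, Rik, os and -ps (2483 tested entries) stayed in the fit but out of calls.

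Reads were rebuilt as coverage times length divided by 100 bases, and they are not independent molecules. Per the labels a replicate number marks a batch, and deviations of same-numbered libraries correlated at 0.563 across genes, so libraries were paired in a block as an alternative, beside other pseudocounts, filters, normalizations, FPKM, voom and left-out libraries. The fit without the block was run on simulated data with independent noise and no batch. Only genes at higher levels were changed there, so that run does not cover most of the tested Wnt genes. Genes named in the text were all 45 members, listed pathway genes past the adjusted p in either fit, *Ctnnb1*, *Wls*, *Porcn* and *Lgr4*, which were named whatever their values, and set check genes and markers. Members and lists were chosen with earlier results of these data known. GENCODE M39 served for shared sequence and RefSeq for promoters.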

Additional observations from a re-analysis of the deposited data

How the results depend on the processing

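Over all eligible entries, 24 were called higher without the block. That count was 15 with a pseudocount of 5, 0 without a filter on low values, 15 with a mean of at least 5 TPM, 12 without a variance trend, 56 with voom and the replicate block, 11 at an adjusted p under 0.05, and 17 to 30 when 1 library was left out. None was called lower, against 1 with the replicate block, 7 with voom and the block, and 1 to 7 when 1 library was left out. Of the Wnt genes 1 was called higher, against 0 with a pseudocount of 5, without a filter, without a trend or at an adjusted p under 0.05, 2 with voom and the block, and 0 to 1 when 1 library was left out (0 without control replicate 1). The other pathway genes past the adjusted p were 0 in each direction, against 1 higher and 1 lower with the replicate block and 2 higher and 2 lower with voom and the block. With the block but no filter, an alternative chosen after seeing the data, *Wnt9a* stayed called (adjusted p = 0.0751). The log2 fold change of *Wnt9a* ranged from 0.93 to 1.47 and its adjusted p from 0.000106 to 0.639. The cause of these changes was not tested.

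Signs turned in 8 of the 17 tested Wnt genes, all with an estimate between -0.12 and 0.11. *Wnt4* gave 0.00935 with a pseudocount of 5, 0.00245 with voom and the block and -0.48 to 0.44 when 1 library was left out, and *Fzd2* gave -0.0059 after quantile normalization and -0.25 to 0.30. When 1 library was left out, *Wnt5b* ran from -0.30 to 0.0538, *Fzd3* from -0.0254 to 0.13, *Fzd9* from -0.0608 to 0.0518, *Dkk3* from -0.0025 to 0.22, *Sfrp2* from -0.39 to 0.32 and *Wif1* from -0.21 to 0.15. A lone library left in a group was assumed to vary like the others. Levels under 0.2 TPM rest on few reads, and a fold cannot be read from them.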
